A study of Homo sapiens with 4 samples.

Results

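Arl2 and Cfl1 are a pair of mouse genes that act on different arms of the cytoskeleton, Arl2 on microtubules and Cfl1 on actin filaments. They were taken by their gene symbols from the deposited tables and are 2 of the 23698 loci listed, with 1 row each in every table. Both were chosen by symbol with their FPKM in these 4 libraries already known, so their levels and differences are given as descriptions, without a test. Arl2 spans 6134389 to 6141137 and Cfl1 spans 5490455 to 5494031 on chromosome 19 of the mouse build mm9, 640 kb apart, and each is listed with 1 transcription start group.

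Arl2 is a small GTPase of the ARF-like family that works with the tubulin cofactors, the chaperones that join alpha and beta tubulin into the dimers from which microtubules grow. Cfl1 encodes cofilin-1, the main cofilin of non-muscle cells, which binds actin filaments, severs them and returns actin monomers for new growth. LIM kinases switch cofilin off by phosphorylation, and slingshot phosphatases switch it on again. Docetaxel, the drug given in this study, binds beta tubulin within microtubules and holds them in the assembled state, so dividing cells stall.

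MDA-MB-231, a line of human triple-negative breast cancer, was grown as subcutaneous tumours in Balb/c nude mice, which lack T cells. The grafted cells were caspase-3 efficient, or their caspase-3 had been inhibited in culture with Z-DEVD-FMK. Mice of either kind had no treatment or were given docetaxel at 15 mg/kg when tumours measured 12 mm². Each of the 4 conditions (efficient untreated, efficient docetaxel, inhibited untreated, inhibited docetaxel) was 1 library with no replicate, and the labels do not say whether a library came from a single tumour or a pool. No p-value can be given, and every difference describes these libraries. The labels give neither the sex nor the age of the mice. Inhibition was applied to the cultured cells, and the caspase-3 activity left in the grown tumours was not measured in these files.

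Values are FPKM, fragments scaled by transcript length and by the mapped total, so levels of different genes can be compared per length. The tables list mouse loci although the grafted cells were human, so each value holds reads of the host and possibly of human cells, and these were not separated. In bulk tissue, fewer cells of a type and less RNA per cell cannot be told apart. Between 1842 and 2776 loci were above 0 in a library. Ratios of low values between libraries put the sequencing depth at 1.32, 0.884 and 0.661 times that of the efficient untreated library for the efficient docetaxel, inhibited untreated and inhibited docetaxel libraries. The inhibited docetaxel library, which decides most of what follows, was thus the shallowest. The part of chromosome 19 around both genes was well covered: of 122 other loci within 1 Mb of either, 75 (61.5%) had values above 0 in 3 or 4 libraries, while 6.44% of the 23574 loci elsewhere did.

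Cfl1 was among the highest measured loci of every library and varied little. It was at 789 FPKM in the efficient untreated library (deposited bounds 601 to 762), 673 in the efficient docetaxel library (490 to 623), 694 in the inhibited untreated library (521 to 695) and 901 in the inhibited docetaxel library (676 to 901). From the highest locus down it ranked 2, 5, 3 and 2 in that order, and its highest value was 1.34 times its lowest. These ranks hold among the 2255, 2776, 2000 and 1842 loci above 0, while the actin gene Actb, for example, was listed at 0. They do not give the place of Cfl1 among all transcripts of the tumours. Along the order of levels, each library's bounds overlapped those of the next. The only pair with bounds apart was the highest and the lowest, inhibited docetaxel and efficient docetaxel, with a gap of 53.2 FPKM. The FPKM of Cfl1 lay above its own deposited upper bound in both efficient libraries and, by 0.157 FPKM, in the inhibited docetaxel library. This holds for 6, 9, 2 and 3 loci in the 4 libraries, and the sources used here do not say how the bounds were made. The middle of the bounds was 681, 557, 608 and 789 FPKM, which keeps the same highest and lowest library. Cofilin genes are known for processed copies elsewhere in mammalian genomes, and the sources used here do not say how reads with several matches were counted, so the level of Cfl1 is uncertain to that extent.

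Arl2 was a gene of moderate level with wide bounds. It was at 14.9 FPKM in the efficient untreated library (4.58 to 25.2), 12.0 in the efficient docetaxel library (3.42 to 20.5), 6.71 in the inhibited untreated library (0 to 12.9) and 40.3 in the inhibited docetaxel library (13.8 to 65.3). The inhibited docetaxel library was the highest and the inhibited untreated library the lowest, 6.01 times apart, and the efficient pair lay between them. Neighbours in this order had overlapping bounds, and only the highest and the lowest library did not overlap. The half-width of the bounds was 63.9% to 91.7% of the Arl2 value, against 9.89% to 12.5% for Cfl1. By these bounds the level of Arl2 is far less precise. The Cfl1 bounds, however, left out its own FPKM in all but the inhibited untreated library, so they may understate its uncertainty. Scaled by relative depth, Arl2 fragments relative to the efficient untreated library were 1.06 in the efficient docetaxel, 0.397 in the inhibited untreated and 1.79 in the inhibited docetaxel library. The library with the highest value thus also had the most Arl2 fragments, although it was the shallowest. For Cfl1 the same figures were 1.12, 0.777 and 0.755, so the library with its highest FPKM had its fewest fragments. These figures are FPKM times estimated depth and so are no separate measurement. Per length, Cfl1 was 52.8, 56.1, 103 and 22.3 times as high as Arl2 in the 4 libraries in the order above.

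**Figure D1:**
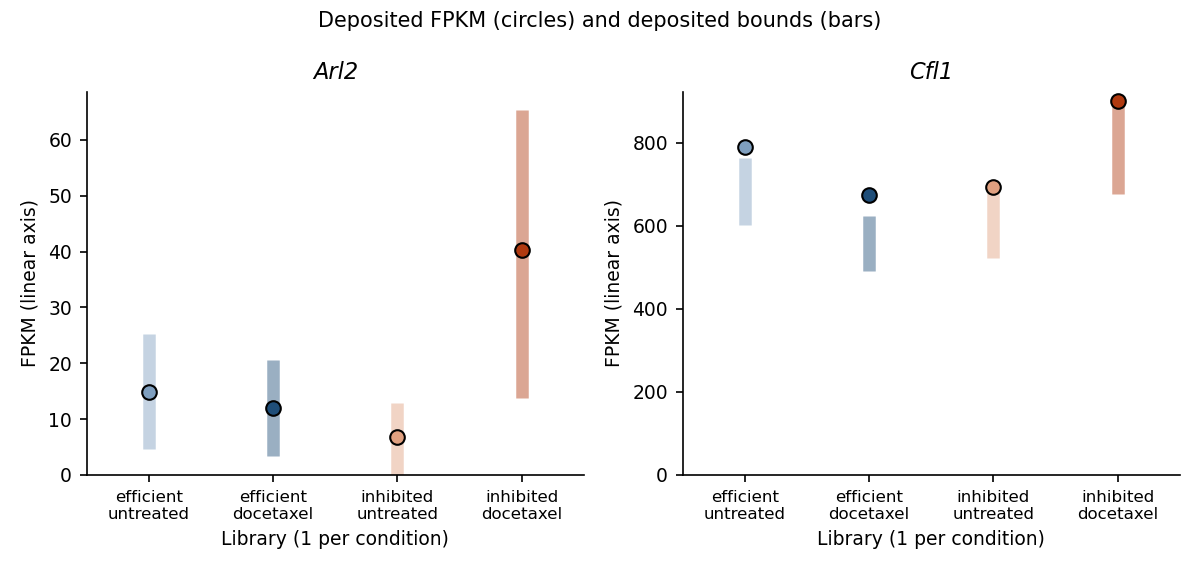
FPKM of Arl2 (left) and Cfl1 (right) on linear axes in the 4 libraries, with circles for the deposited FPKM and bars for the deposited bounds. Arl2 in the inhibited docetaxel library stands at 40.3 FPKM with bounds from 13.8, just above the upper bound of 12.9 in the inhibited untreated library, while the circles of Cfl1 lie at or above the tops of their bars.

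Each gene was next compared between libraries on the scale of log2(FPKM + 1), where a pseudocount of 1 understates differences of low genes. A call, higher or lower, needed a difference of 2-fold or more on this scale, deposited bounds that did not overlap, the status OK in the pair of libraries and 5 FPKM or more in 1 of them. Docetaxel was first compared with no treatment in efficient tumours, where neither gene was called. Arl2 was at 12.0 FPKM with docetaxel and 14.9 without, a difference of -0.29, with an interval from the deposited bounds of -2.57 to 1.95. Cfl1 was at 673 against 789 FPKM, a difference of -0.23 (interval -0.64 to 0.05). Among the 667 loci compared, 8.1% were called higher and 0.9% lower, and the median difference was 0.34. Relative to that median, Arl2 was at -0.64 and Cfl1 at -0.57, so both sat in the lower part of the distribution while most loci were somewhat higher in the docetaxel library. When the libraries were scaled to each other, the bounds of Cfl1 came apart here: after median scaling it was at 618 (450 to 572) with docetaxel and 835 (635 to 806) without, a difference of -0.43. That is under 2-fold, so the call did not change. Both FPKM lay above their own upper bounds, as deposited and after this scaling.

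In inhibited tumours Arl2 was called higher with docetaxel. It was at 40.3 FPKM against 6.71, a difference of 2.42 on the log2 scale (interval 0.09 to 6.05), and it ranked 23 from the highest among 630 loci. In this comparison 3.81% of the 630 loci were called higher (24 loci) and 1.75% lower (11 loci), and the median difference was 0.37. Bounds apart in this direction, at any fold, were found in 6.67% of the loci. The gap between the bounds of Arl2 was 0.888 FPKM, so the call was a narrow one. It was lost under every scaling between libraries that was tried. After median scaling the lower bound with docetaxel was 12.7 FPKM and the upper bound without was 14.6. After quantile normalization these were 12.5 and 14.2, and after scaling to neighbouring loci of chromosome 19 they were 12.8 and 14.9. The size of the difference moved less than the call, with 2.15, 2.17 and 2.14 under the 3 scalings. The counts over all loci also shifted, to 14 higher and 17 lower after median scaling.

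Cfl1 was at 901 FPKM with docetaxel and 694 without in inhibited tumours, a difference of 0.38 (interval -0.04 to 0.79), and it was not called. This lies 0.01 from the median difference of all compared loci, so on the deposited scale Cfl1 stood at the middle of the loci. Its difference was 0.08 after median scaling and 0.07 after scaling to neighbouring loci. After quantile normalization it was 0.45 against a median of 0.02 over all loci, with bounds 13.4 FPKM apart, so the place of Cfl1 among the loci depends on the scaling.

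**Figure D2:**
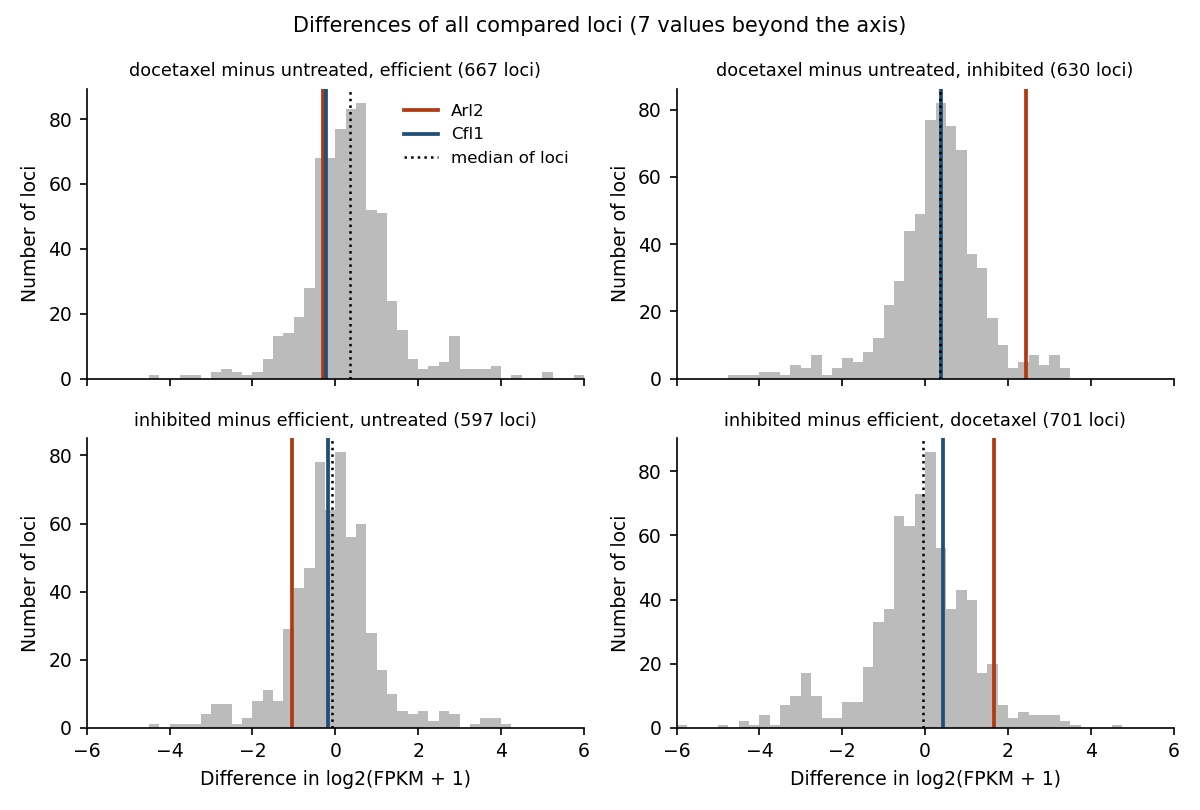
Numbers of loci by their difference in log2(FPKM + 1) in each of the 4 comparisons, with vertical lines at Arl2 and Cfl1 and dotted lines at the median of the loci; 7 values lie beyond the axis. Arl2 stands in the upper tail for docetaxel in inhibited tumours (2.42) and for inhibition under docetaxel (1.67), while Cfl1 lies between -0.57 and 0.47 of the median in the 4 panels.

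**Figure D3:**
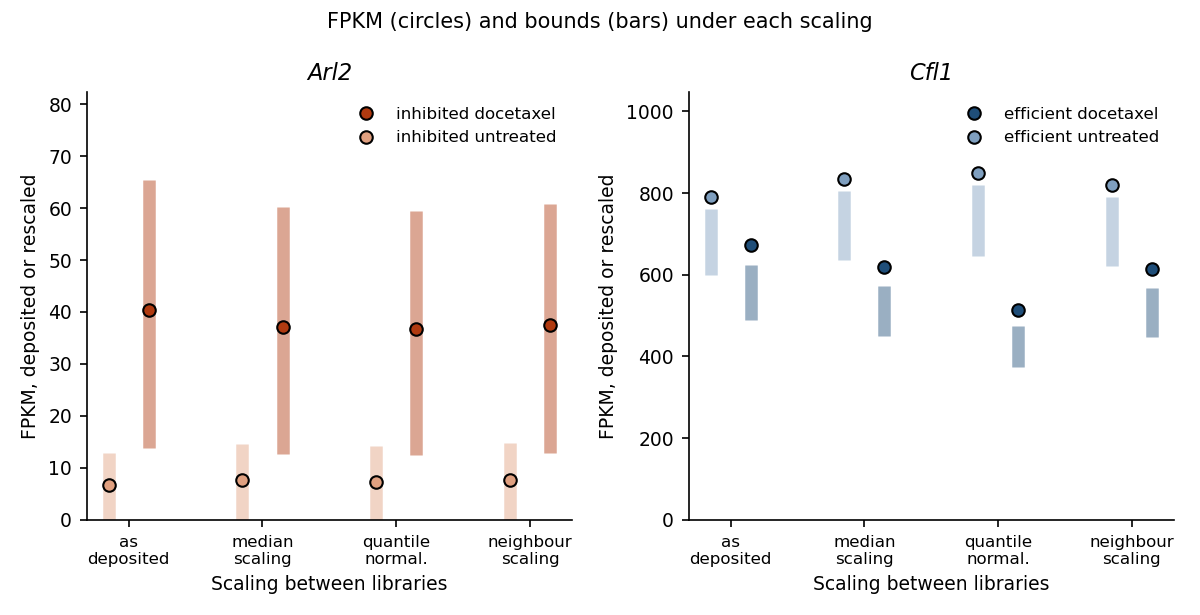
FPKM (circles) and bounds (bars) of Arl2 in the inhibited libraries and of Cfl1 in the efficient libraries, as deposited and under 3 scalings, on linear axes. The bounds of Arl2 are apart as deposited and overlap under each scaling, while those of Cfl1 overlap as deposited and are apart under each scaling.

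Inhibited tumours were then set against efficient tumours. Without treatment, Arl2 was at 6.71 FPKM in the inhibited and 14.9 in the efficient library, a difference of -1.05 (interval -4.71 to 1.31), and Cfl1 at 694 against 789, a difference of -0.19 (interval -0.55 to 0.21). Neither was called as deposited, among 597 loci of which 2.51% were called higher and 3.35% lower. Arl2 thus differed by 2-fold between the untreated libraries, but its bounds overlapped over a wide range. The Cfl1 difference was -0.08 after median scaling, -0.03 after scaling to neighbouring loci and -0.45 after quantile normalization, where alone its bounds came apart, by 22.0 FPKM.

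Under docetaxel, Arl2 was at 40.3 FPKM in the inhibited and 12.0 in the efficient library, a difference of 1.67 (interval -0.55 to 3.91). It was not called, since the lower bound of 13.8 lay below the upper bound of 20.5. Of the 701 loci compared 3.99% were called higher and 9.27% lower, and Arl2 ranked 36 from the highest by the size of its difference. Cfl1 was at 901 against 673 FPKM, a difference of 0.42 (interval 0.12 to 0.88). Its bounds did not overlap, as held for 5.14% of loci in the higher direction at any fold. The difference was well under 2-fold and so was not called. In both libraries the FPKM of Cfl1 lay above its own upper bound, by 0.157 FPKM in the inhibited and 50.1 in the efficient library. The gap thus lies between bounds that do not hold the values they belong to. The bounds of Cfl1 in this comparison stayed apart under all 3 scalings, with differences of 0.43, 0.73 and 0.45. This comparison shares the inhibited docetaxel library with that of docetaxel in inhibited tumours, so the high Arl2 value enters both.

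The docetaxel difference of each gene had the opposite sign in efficient and inhibited tumours. On the deposited scale, only that of Arl2 in inhibited tumours had an interval that left out 0. After each of the 3 scalings the bounds of Arl2 overlapped there, while those of Cfl1 in efficient tumours came apart. In inhibited tumours the bounds of Cfl1 came apart after quantile normalization alone. The share of all loci with opposite signs was not counted. For Arl2 the docetaxel differences were -0.29 and 2.42, a difference of differences of 2.72. For Cfl1 they were -0.23 and 0.38, a difference of differences of 0.61, where the 0.38 lay 0.01 from the median of all compared loci. Of the 775 loci that reached 5 FPKM in any library, 7.1% reached 2 or more in this direction, with Arl2 at rank 23 and Cfl1 at rank 215, around a median of 0.01. The difference of differences ranged from 2.18 to 2.88 for Arl2 and from 0.48 to 1.17 for Cfl1 over the 6 alternative settings, and its sign held in each, but with 1 library per condition the difference between tumour kinds was not tested.

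The loci next to each gene had lower values and no call. Arl2 overlaps no other listed locus. Snx15, a sorting nexin gene that ends 6174 bases before it, was at 5.95, 4.61 and 1.67 FPKM in the efficient untreated, efficient docetaxel and inhibited untreated libraries and was listed at 0 in the inhibited docetaxel library, where Arl2 was highest. A listed 0 gives no level, since genes that every cell uses, the actin gene Actb among them, were also listed at 0. Batf2, a transcription factor gene 23321 bases past Arl2, was at 6.82, 6.63, 5.74 and 2.56 FPKM, and was thus lowest in that library, with overlapping bounds. Beside Cfl1 lie Mus81, a DNA repair endonuclease gene at 3.34, 5.12, 6.24 and 5.01 FPKM, and Snx32, another sorting nexin gene, at 0, 1.06, 1.54 and 2.06 FPKM. These levels are small beside the 673 to 901 FPKM of Cfl1.

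In the wider neighbourhood Arl2 ranked highest in 1 of the 4 comparisons. For docetaxel in inhibited tumours it had the highest difference of the 61 compared loci within 1 Mb of either gene, as deposited and under the 3 scalings. The 59 loci other than the pair had a median of 0.21, and 2 of them were called higher and 0 lower as deposited. Those higher were Ctsf, a lysosomal protease gene, at 20.2 (9.08 to 30.3) against 3.78 FPKM (0 to 6.79), and Mrpl11, a mitochondrial ribosomal protein gene, at 15.6 (8.29 to 22.8) against 3.34 (0.776 to 6.21). Unlike Arl2, both were still called under the 3 scalings, and their bounds were 2.28 and 2.09 FPKM apart as deposited. Each scaling also gave 2 lower calls there, Pcnxl3 and Slc25a45. For docetaxel in efficient tumours Arl2 ranked 39 and Cfl1 ranked 36 of 62, where 1 of the 60 other loci was called as deposited, Pcx, the gene of pyruvate carboxylase, which was higher. There 1110014N23Rik was also called lower after median scaling and after quantile normalization, and Map3k11 after quantile normalization. For inhibition, Arl2 ranked 55 of 64 without treatment, where 2 of 62 other loci were called higher (Lrfn4, Rbm4) and 3 lower (Frmd8, Map4k2, Neat1), of which Neat1 was not called after scaling to neighbouring loci. Under docetaxel it ranked 3 of 63, and 3 of 61 other loci were called higher (Plcb3, Rbm14, Rbm4) and 4 lower (Cd248, Dpp3, Pcx, Slc25a45). Cfl1 ranked between 20 and 36 in all 4 comparisons.

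**Figure D4:**
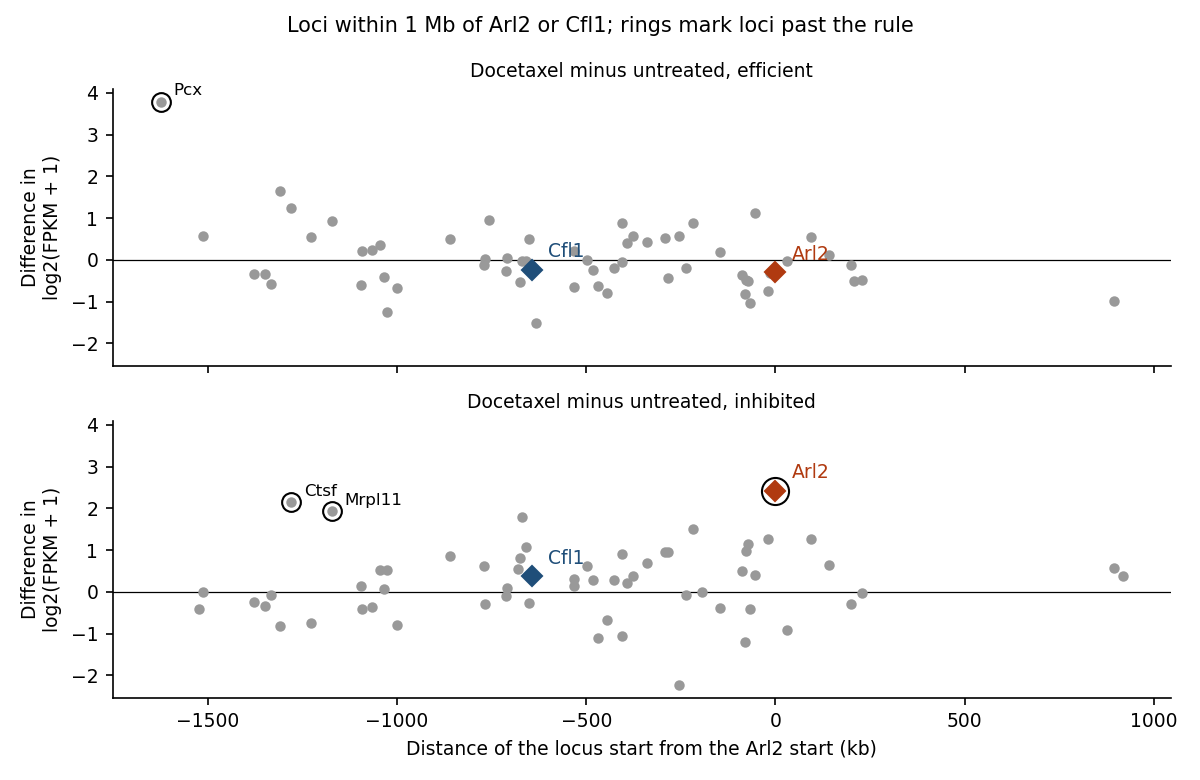
Docetaxel differences in log2(FPKM + 1) of loci within 1 Mb of Arl2 or Cfl1, by the distance of each locus start from the Arl2 start in kb, in efficient (top) and inhibited tumours (bottom). Diamonds mark Arl2 and Cfl1, and rings mark loci that were called, which are Pcx at 3.79 in the top panel and Arl2 at 2.42, Ctsf at 2.15 and Mrpl11 at 1.94 in the bottom panel.

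The loci with the most similar pattern over the 4 libraries were found by the root mean square difference of centred log2(FPKM + 1), among 591 other loci above 0 in all 4 libraries. For Arl2 they were Tsnax (0.21), Cs (0.24), Ctsw (0.25), Lhx6 (0.27) and Nkrf (0.29), against a median of 0.86 over the 591. Ctsw, which encodes cathepsin W, a protease of cytotoxic lymphocytes, lies within 1 Mb of Cfl1 and was at 7.74, 7.57, 4.34 and 17.4 FPKM. Cs, the gene of citrate synthase, was at 3.03, 2.31, 1.70 and 13.7 FPKM, and Nkrf, a repressor of NF-kB target genes, at 12.4, 9.37, 8.76 and 30.2. All 5 were highest in the inhibited docetaxel library and lowest in the inhibited untreated library, as Arl2 was, which the measure of likeness selects for. For Cfl1 the nearest were Gramd4 (0.07), Papolg (0.07), Eif4a1 (0.07), Syvn1 (0.07) and Sipa1 (0.08), against a median of 0.45. Eif4a1, an RNA helicase of translation initiation, was at 46.6, 44.8, 42.9 and 53.8 FPKM, and Syvn1, a ubiquitin ligase of the endoplasmic reticulum, at 10.3, 7.82, 7.71 and 11.3. Syvn1 and Sipa1 lie within 1 Mb of the pair. With 4 libraries, likeness of this kind is a description only.

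The partners of both genes could hardly be read. Of 174 genes in 7 cytoskeleton lists, 28 reached 1 FPKM in a library and 11 reached 5. None of the 22 tubulin genes listed reached 5 FPKM, and 18 of the 20 found in the tables were at 0 in all 4 libraries. Of the 17 tubulin cofactors and Arl2 partners, 14 were at 0 throughout, including Tbcd, the cofactor that binds Arl2, and Arl3, its closest relative. Tbcc, the cofactor that acts as a GTPase activator, was at 1.21 FPKM in the efficient untreated library and listed at 0 elsewhere, and Arl2bp, an Arl2-binding protein gene, at 4.09 in the inhibited untreated library alone. Likewise the relatives of Cfl1, Cfl2 of muscle and Dstn, which encodes destrin, were at 0 in all libraries.

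On the microtubule side, 1 list gene was called. Mtap1a, the older symbol of the microtubule-associated protein gene Map1a, was at 4.92 (3.11 to 6.73), 8.10 (6.05 to 10.1), 3.15 (1.55 to 4.84) and 8.17 FPKM (5.44 to 10.9) in the 4 libraries in the order above. It was higher in both docetaxel libraries than in their untreated counterparts, by 0.62 in efficient and 1.14 in inhibited tumours, and was called in the latter. As for Arl2, its bounds overlapped under the 3 scalings, by 0.383 to 0.523 FPKM. Kif5b, a kinesin motor gene, was at 16.7, 26.0, 19.6 and 24.6 FPKM without a call. Cct4, a subunit of the chaperonin that folds actin and tubulin, was at 85.8 (62.8 to 108), 109 (81.7 to 128), 87.5 (63.7 to 109) and 120 FPKM (88.2 to 152), also without a call and with overlapping bounds throughout.

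On the actin side, no list gene was called in any comparison. Ssh3, a slingshot phosphatase gene, was at 7.89, 13.2, 7.08 and 8.28 FPKM, and Limk2, a LIM kinase gene, at 2.23, 2.48, 1.86 and 2.11. Coro1b, encoding a coronin that works with cofilin at actin filaments, was at 107, 140, 84.5 and 118 FPKM. Actr2, a subunit of the Arp2/3 complex, was at 89.9, 123, 87.8 and 78.0 FPKM, and Capza2, which caps filament ends, at 92.7, 117, 120 and 130. Under docetaxel the bounds of Actr2 were apart, at 61.1 to 94.5 in the inhibited and 104 to 140 in the efficient library. That difference of -0.65 was under 2-fold and opposite in direction to that of Cfl1. Pfn1, which encodes profilin and supplies actin monomers, was at 2.98, 2.40, 16.8 and 4.48 FPKM, with bounds of 5.14 to 28.3 in the inhibited untreated library that overlap those of the efficient untreated and inhibited docetaxel libraries. Rhod, a small GTPase gene, was at 1.75 and 8.20 FPKM in the efficient untreated and efficient docetaxel libraries, with lower bounds of 0, and was listed at 0 in both inhibited libraries. Its differences of 1.74 for docetaxel in efficient tumours and -3.20 for inhibition under docetaxel, against a listed 0, were the extremes of the lists there and were not called. Per length, Cfl1 was therefore higher than each measured gene of the lists in every library.

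Over the 7 lists together, 10 loci were compared for docetaxel in efficient tumours (0 called, median 0.42 against 0.34 over all loci). In inhibited tumours 10 were compared (1 called, median 0.26 against 0.37). For inhibition 9 were compared without treatment and 10 under docetaxel (0 called in each, medians 0.03 and -0.03). A single call among 10 loci is 1 locus, and under each scaling 0 list loci were called in any comparison.

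**Figure D5:**
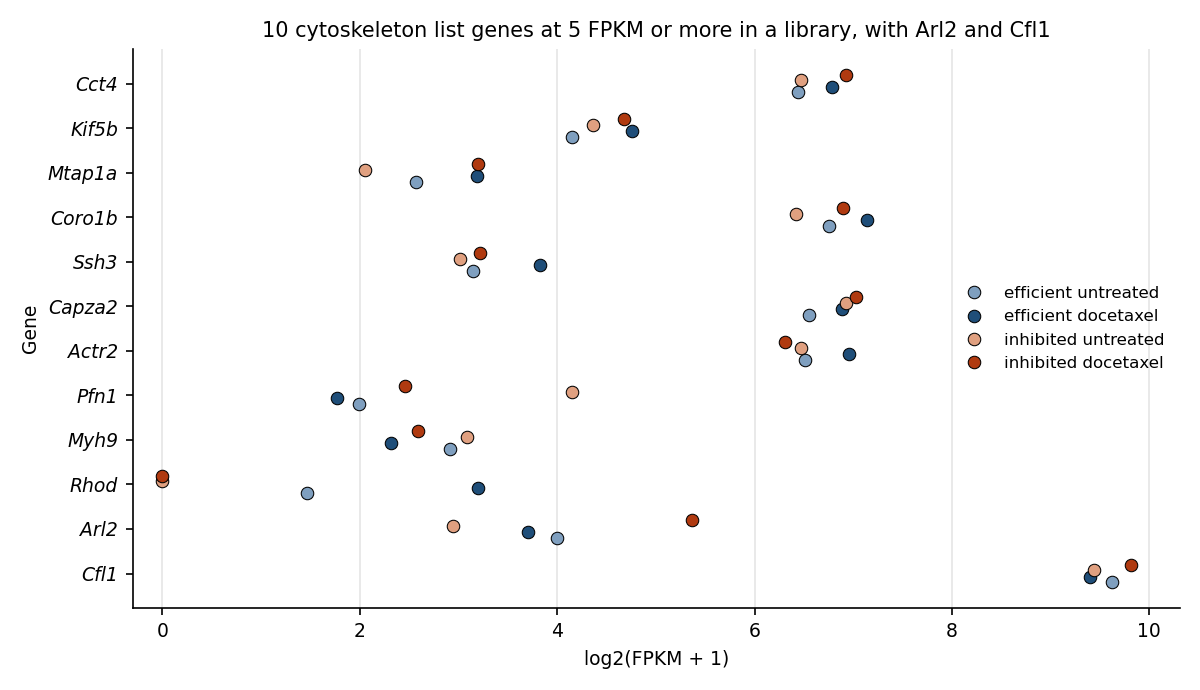
Levels in log2(FPKM + 1) of 10 of the 11 list genes at 5 FPKM or more in a library, with Arl2 and Cfl1 at the bottom, coloured by library. The 4 points of Cfl1 lie to the right of all others, and Arl2 spans 2.42 from the inhibited untreated to the inhibited docetaxel library.

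Most markers of cell types that the tumours could hold were at 0, and those measured differed widely between libraries. All markers of macrophages, lymphocytes and keratinocytes found in the tables were at 0 in every library. A listed 0 gives no level, so this does not show that such cells were absent. Of 6 carcinoma markers 1 was above 0, Cldn4 at 5.71 FPKM in the efficient docetaxel library. These are mouse loci, while the grafted carcinoma cells were human, so they do not measure carcinoma content. Of 6 fibroblast markers 1 was measured at 1 FPKM or more, Col1a2, which made up nearly all of the list. The list summed to 369, 515, 371 and 579 FPKM, with Col3a1, Pdgfra, Dcn and Lum at 0. Of 6 endothelial markers 2 were measured, with a sum of 2.86, 1.85, 0.734 and 3.30 FPKM and Cdh5, Kdr, Tie1 and Emcn at 0. Both sums were higher in the inhibited docetaxel than in the inhibited untreated library, as Arl2 was. In efficient tumours the fibroblast sum was also higher with docetaxel, where Arl2 was not, and the endothelial sum was lower. The endothelial sum rests on Pecam1 and Tek, at most 1.96 FPKM each, with lower bounds of 0 in both inhibited libraries. The part of both sums in the Arl2 difference was not tested. The erythroid list summed to 208, 1767, 935 and 427 FPKM and so was lower in the inhibited docetaxel than in the inhibited untreated library, and at least 1 of its loci was called in each of the 4 comparisons. Of 6 adipocyte markers 2 were measured, Retn and Lep, and the list summed to 10.5 and 419 FPKM in the efficient untreated and efficient docetaxel libraries and was listed at 0 in both inhibited libraries, with Adipoq, Cidec, Plin1 and Fabp4 at 0 throughout. Retn was called in 2 comparisons, higher with docetaxel in efficient tumours and lower in inhibited tumours under docetaxel. The part of the erythroid and adipocyte loci in the values of Arl2 and Cfl1 was not tested.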

How the data were processed

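RNA was sequenced from 4 xenograft libraries, 1 per condition. Either ribosomal RNA was removed or messenger RNA was selected, and a MiSeq was used, per the labels' protocols. The authors aligned and quantified with TopHat, Cufflinks and build mm9, per the submitters' processing notes, which give no versions here. The authors deposited FPKM together with confidence bounds, per the file headers, taken here as 95% intervals.

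Loci were joined by symbol and position, and start positions were raised by 1. In each library 285 loci with status LOWDATA were left out. Relative depth is the commonest ratio of values under 3 FPKM. Absolute fragment counts were not derived. List genes count as measured from 1 FPKM.

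Arl2 and Cfl1, the gene lists and the call rule were chosen with earlier results of these data known. The genes named were the pair, the loci beside them, the 5 most similar in pattern (predicted genes, clones and short RNAs left out), list members and the called loci near the pair, where loci called only after a scaling were named after their values were seen. Of the list members, up to 4 per list by level were to be named, and further ones (Limk2, Tbcd, Mtap1a at any rank and those at 0) were named for their role after values were seen. The call rule was checked on simulated data with counting noise alone. Differences between animals, shifts of scale between libraries and bounds that leave out their own FPKM were not simulated, so that check does not cover them. Alternatives were pseudocounts of 0.1 and 5, no minimum or 20 FPKM, 3 scalings, no interval criterion and a 3-fold threshold. The middle of the bounds, and the effect of scalings and pseudocounts on each gene's calls, were added after seeing the data. The values of 1 list gene are not reported here. No sequence is printed, since no mouse reference was used here. Software was numpy 2.4.6, pandas 2.3.3 and matplotlib 3.10.9 under Python 3.11.15.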

Additional observations from a re-analysis of the deposited data

Results flagged for a closer look

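Both genes had docetaxel differences of opposite sign in the 2 kinds of tumour, and with 1 library per condition this was not tested. The share of all loci with opposite signs was not counted, so the pattern cannot be called particular to this pair. For Arl2 the difference in inhibited tumours exceeded that in efficient tumours by 2.72 on the log2(FPKM + 1) scale, with 1 of the 2 differences called (2.42 in inhibited, -0.29 in efficient tumours). For Cfl1 it did so by 0.61, from 0.38 and -0.23, neither of them called. The 0.38 of Cfl1 lay 0.01 from the median of all loci compared there. As deposited, the intervals of these docetaxel differences included 0 apart from that of Arl2 in inhibited tumours. After each of the 3 scalings Arl2 was not called and its bounds there overlapped. The bounds of Cfl1 in efficient tumours came apart under each scaling, with differences under 2-fold.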

How the results depend on the processing

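No replicate could be left out and no paired analysis was possible because each condition was 1 library. All 60 alternative values of the 10 differences of Arl2 and Cfl1 kept their sign. For a difference between 2 libraries a pseudocount cannot change the sign, so those values were bound to keep it. Of the 60, 1 lay outside the interval from the deposited bounds: Cfl1 for docetaxel in efficient tumours, -0.73 after quantile normalization. The intervals of Arl2 are wide beside the largest scaling shift of 0.31, so staying inside them says little. Arl2 was called in 1 comparison as deposited, in 0 under each of the 3 scalings, and in 3 with no interval criterion. Cfl1 was called in 0 comparisons under all settings. In inhibited tumours the Arl2 difference ranged from 1.95 (pseudocount 5) to 2.57 (pseudocount 0.1).

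Counts over all loci depended on the settings. For docetaxel in efficient tumours (54 higher, 6 lower) lower loci numbered 2 with a pseudocount of 5, 11 after median scaling, 13 after quantile normalization, 10 after scaling to neighbouring loci, 11 with no minimum and 3 with a 3-fold threshold. There, a minimum of 20 FPKM gave 24 higher and 1 lower, and no interval criterion 141 and 46. The share of higher calls was 90.0% as deposited and 78.0%, 74.5% and 79.6% under the 3 scalings. For docetaxel in inhibited tumours (24 higher, 11 lower) median scaling and neighbour scaling gave 14 and 17 and quantile normalization 12 and 19. No minimum gave 19 lower, a minimum of 20 FPKM 12 higher and 1 lower, no interval criterion 127 and 57, and a 3-fold threshold 15 higher. The share of higher calls was 68.6% as deposited and 45.2%, 38.7% and 45.2% under the 3 scalings. For inhibition without treatment (15 higher, 20 lower) a minimum of 20 FPKM gave 7 and 5, no interval criterion 60 and 82, and no minimum 34 lower. For inhibition under docetaxel (28 higher, 65 lower) no minimum gave 112 lower, a minimum of 20 FPKM 21 lower, no interval criterion 108 and 132, and a 3-fold threshold 13 higher. The cause of these shifts was not tested. The bounds do not cover differences between animals.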
